A study of Mus musculus with 6 samples.

Results

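Genes that bring amino acids into cells, make them and load them onto tRNA were examined in mouse embryos grown in cavities of different width. The set held 39 genes chosen by symbol: 14 membrane transporters, 13 enzymes of amino acid and one-carbon synthesis and 12 cytosolic aminoacyl-tRNA synthetases. Of these, 37 were measured by an array feature that names a single gene, out of 19938 such genes on the array. Pycr1, an enzyme of proline synthesis, was not measured in this way, and Aars, the alanyl-tRNA synthetase, was read only by a feature that it shares with Exosc6. No gene was left out for a low signal. The genes, and the lists compared with them below, were chosen with earlier results of these data known.

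Embryos of the outbred CD1 stock were collected at embryonic day 5.0 and cultured for 8 hours, in narrow cavities of 90 µm or in wide cavities of 180 µm diameter. Each cavity had 3 samples, called here narrow 1 to 3 and wide 1 to 3 after their titles, and each sample was the RNA of 30 pooled whole embryos. All embryos were thus cultured, and embryos left in the uterus formed no group. The series asked how embryos with and without external mechanical cues differ. The deposited values were log2 signals from an Affymetrix mouse Gene array, already on a common scale, with array medians between 7.62 and 7.67.

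Pools of whole embryos mix epiblast, extraembryonic ectoderm and visceral endoderm, so fewer cells of a type and less RNA per cell cannot be told apart. The mean log2 signal of 8 epiblast markers lay between 11.08 and 11.18 in narrow and between 11.15 and 11.20 in wide samples. That of 9 visceral endoderm markers lay at 11.89 to 11.90 in narrow and 11.84 to 11.89 in wide samples, and that of 6 extraembryonic ectoderm markers at 10.82 to 10.93 and 10.90 to 10.92. For 5 parietal endoderm markers it was 10.96 to 11.05 in narrow and 10.92 to 10.97 in wide samples. Markers of decidua (5 genes, 7.28 to 7.44 in narrow and 7.29 to 7.33 in wide samples), blood (4 genes, 6.88 to 7.01 and 6.87 to 7.30) and trophoblast giant cells (2 genes, 8.65 to 8.70 and 8.63 to 8.66) were measured as well. The ranges of the 2 cavities overlapped for all 7 marker lists. For visceral and parietal endoderm the overlap was slight, with the narrow range the higher. Of the 39 markers measured, 3 had every narrow sample above every wide sample (background 4.17% of all genes), namely Trf of visceral endoderm (0.18 ± 0.05, SE, narrow minus wide on the log2 scale), Tfap2c of extraembryonic ectoderm (0.09 ± 0.05) and Bmp2 of decidua (0.14 ± 0.06). A further 3 had every narrow sample below every wide sample (background 3.54%), namely Bmp4 of extraembryonic ectoderm (-0.21 ± 0.08), Sox2 of epiblast (-0.09 ± 0.05) and Hnf4a of visceral endoderm (-0.06 ± 0.04). Apart from Bmp2, the other 4 genes of the decidua list overlapped between cavities. None of the 39 passed over all genes (limma adjusted p = 1.00). With the replicate number as a block, described below, several had an unadjusted limma p under 0.05 (background 7.25%), none passing after adjustment. Higher in narrow were Trf and Rbp4, 2 of the 9 visceral endoderm markers, Thbd of parietal endoderm and Bmp2. Lower in narrow were Bmp4 and Cdx2, 2 of the 6 extraembryonic ectoderm markers, and Nanog of epiblast. The part of cell composition in the results was not tested.

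Cells take up amino acids through exchangers and sodium-driven carriers in the plasma membrane, and make others, such as serine, glycine, asparagine and proline, from intermediates of glucose and glutamine metabolism. Aminoacyl-tRNA synthetases then join each amino acid to its tRNA for protein synthesis. When amino acids run short, uncharged tRNA activates the kinase Eif2ak4, the initiation factor eIF2 is phosphorylated and the transcription factor Atf4 accumulates, which raises the transcription of many of these genes through an element bound by Atf and C/EBP proteins.

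The promoters are shown because some genes of each of the 3 kinds held a match to this element. RefSeq promoter windows (GRCm38.p6, 250 bases before to 50 bases after the annotated start) were found for 28 of the 37 measured genes. Slc7a3, Slc7a5, Slc1a5, Slc38a1, Cth, Lars, Cars, Nars and Wars had no entry. The core of the element, TGATGNAA, was searched on both strands, where the reverse strand reads TTNCATCA. It was present for 9 of the 28 genes, or 32.1%, against 4.51% of 27025 genes with a promoter entry. The 9 were the transporters Slc7a11, Slc7a7 and Slc1a4, the enzymes Asns and Got1, and the synthetases Gars, Tars, Iars and Yars. The core was found in 0 of 6 enzymes of serine, glycine and one-carbon metabolism. It was also absent from the 1 cationic carrier and the 1 transsulfuration enzyme that had a window. In the windows below, capitals mark the core. They run along the coding strand of the gene from chr6:7693199-7693258 (minus strand) for Asns, chr3:50443627-50443705 (minus) for Slc7a11, chr14:54418052-54418111 (minus) for Slc7a7, chr11:20332694-20332743 (minus) for Slc1a4, chr19:43524674-43524733 (minus) for Got1, chr6:55037945-55038004 (plus) for Gars and chr15:11399640-11399699 (minus) for Tars.
Asns: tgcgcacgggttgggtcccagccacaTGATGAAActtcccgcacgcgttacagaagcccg
Slc7a11: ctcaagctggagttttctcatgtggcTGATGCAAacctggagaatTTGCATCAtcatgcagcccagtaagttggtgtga
Slc7a7: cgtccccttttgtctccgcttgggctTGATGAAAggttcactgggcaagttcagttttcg
Slc1a4: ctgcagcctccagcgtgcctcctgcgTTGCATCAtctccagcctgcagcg
Got1: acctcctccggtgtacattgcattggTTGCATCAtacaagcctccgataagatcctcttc
Gars: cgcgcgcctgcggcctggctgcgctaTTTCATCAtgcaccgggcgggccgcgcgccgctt
Tars: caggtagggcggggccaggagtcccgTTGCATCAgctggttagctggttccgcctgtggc

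Asns carried the core 23 bases before its start and Gars 30 bases before it. Slc7a11 held a pair of cores, one on each strand, the first 66 bases before the start. In Iars and Yars the core lay past the start and is not printed. Slc7a7 had 5 windows for its annotated starts, 2 of them with the core. A further core of Slc7a7, TGATGCAA, lay 1 base before a start and is not printed either. A match describes these letters only, and binding was not measured.

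Between cavities, no gene of the set passed. By limma with Benjamini-Hochberg adjustment over all genes, 0 of 37 were called (background 0%), and the adjusted p of each was 1.00. Before adjustment, 0 of 37 had a p under 0.05 (background 3.40%), and 3 of 37, or 8.11%, did with an intensity trend in the variance prior (background 3.03%). The 95% intervals of the 37 genes ran from -0.17 (lower end for the synthetase Sars) to 0.28 (upper end for the glycine transporter Slc6a9). On the linear scale these limits are 0.889-fold and 1.22-fold in narrow relative to wide cavities. Each interval is for 1 gene alone in pools of whole embryos, and the 37 have no joint coverage.

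The differences were small and more often positive than negative. In 27 of 37 genes, or 73.0%, the mean signal was higher in narrow than in wide cavities (background 50.9%, and 56.5% among genes above the median signal, which 35 of the 37 were). The median signal percentile was 92.7 for the 37 and 75 for genes above the median signal, so that background is not matched to the set's brightness. The median difference over the 37 genes was 0.043 on the log2 scale, against 0.0011 over all genes and a median standard error of 0.048 per gene. Every narrow array lay above every wide array for 9 of the 37, or 24.3% (background 4.17%, and 5.30% among genes above the median signal). Every narrow array lay below every wide array for 0 of the 37 (background 3.54%). The 9 were Slc7a5, Slc43a1, Slc1a5, Psat1, Phgdh, Aldh18a1, Cth, Gars and Tars. The gap between the lowest narrow and the highest wide array was narrow, from 0.000029 in Aldh18a1 to 0.029 in Psat1. After quantile normalization of the deposited values, 5 of the 9 remained separate and no other member became so, or 13.5% (background 4.57%). In the 4 arrays numbered 2 and 3 alone, 18 of 37, or 48.6%, were separate in this direction (background 19.2%). These genes were read from the same 6 arrays, so their directions are not independent of each other. The set was chosen with earlier results of these data known, so shares above the background are a description and not a test.

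**Figure D1:**
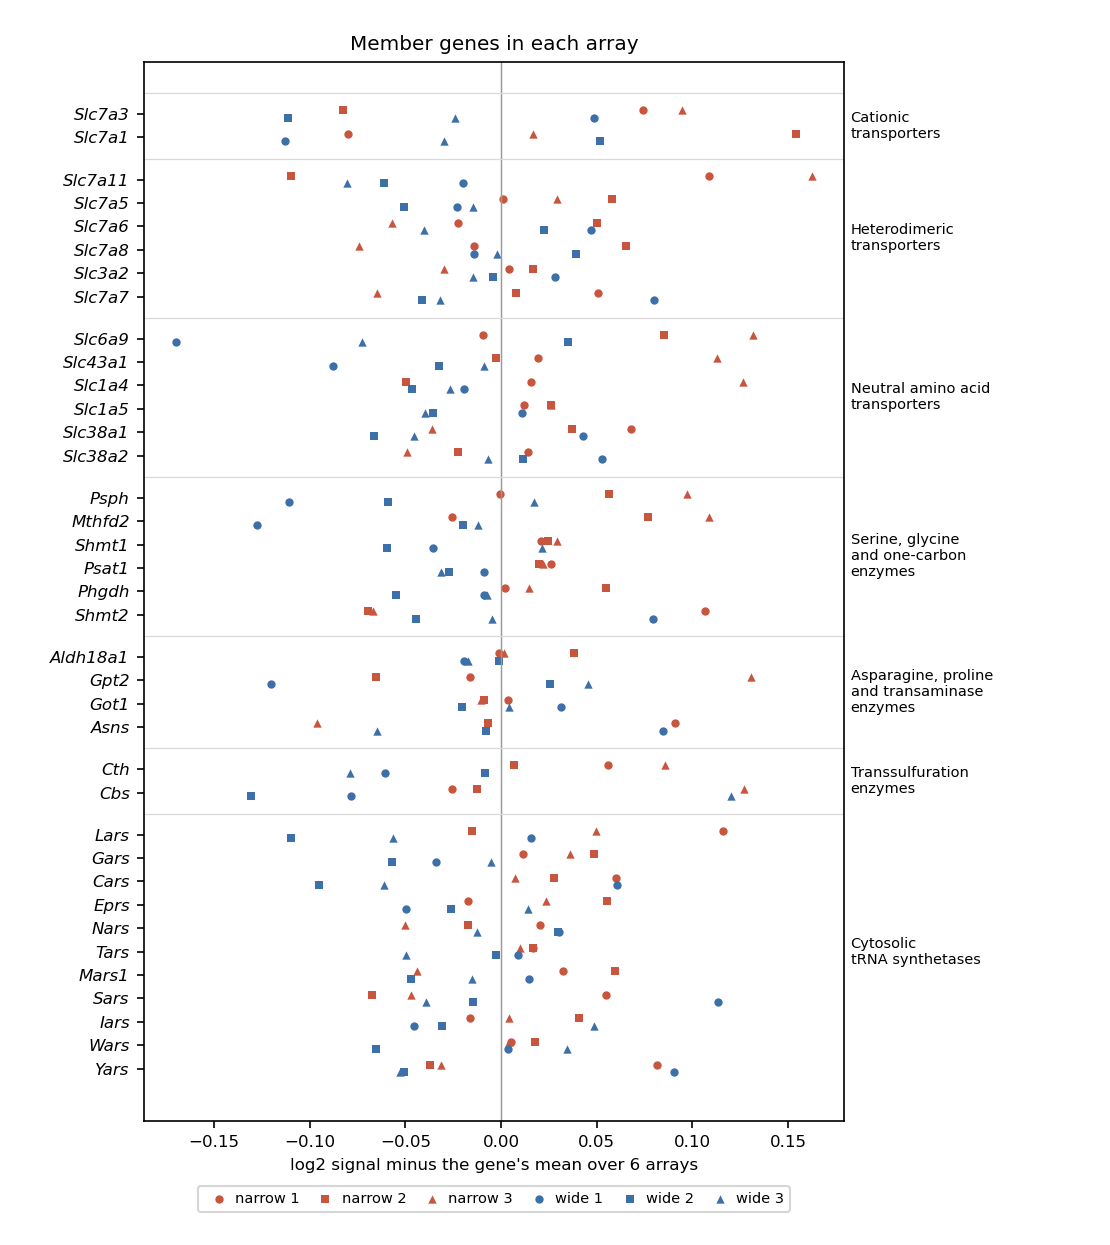
Log2 signal of each of the 37 genes in each array, minus the gene's mean over the 6 arrays (x axis), with the genes in rows by role, narrow samples in red and wide samples in blue, and the marker shape giving the replicate number. Most points lie within 0.15 of the gene's mean, and the arrays of the 2 cavities overlap in 28 of the 37 genes.

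Samples of both cavities carry the numbers 1, 2 and 3. Same-numbered samples were treated as pairs, on the basis of correlations in these same values, since the labels give no pairing. Over all genes, narrow 2 correlated with wide 3 at 0.178 and with wide 2 at 0.176 in deviations from the group means. Narrow exceeded wide in all 3 pairs for 19 of 37 genes, or 51.4% (background 14.8%, and 19.7% among genes above the median signal). Narrow was below wide in all 3 pairs for 3 of 37, or 8.11% (background 13.9%), namely Slc38a2, Nars and Sars. With the replicate number as a block, limma called 0 of 37 (background 0%), and 4 of 37, or 10.8%, had an unadjusted p under 0.05, all higher in narrow (background 7.25%, and 3.54% in that direction). They were Slc6a9, Mthfd2, Psph and Lars, each with an adjusted p of 0.674.

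**Figure D2:**
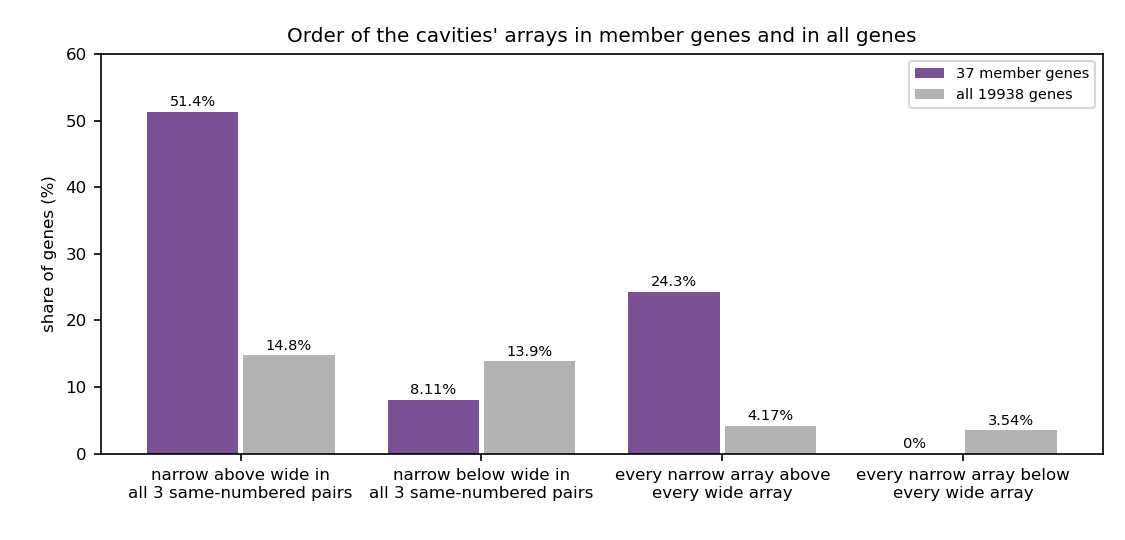
Share of genes (y axis, in percent) whose narrow arrays lay above or below their wide arrays, in all 3 same-numbered pairs or in every comparison of arrays, for the 37 genes (purple) and for all 19938 genes (grey). The upward shares are 51.4% and 24.3% in the set, against 14.8% and 4.17% of all genes. The set was chosen with earlier results of these data known.

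Among carriers of cationic amino acids, both differences were positive and neither exceeded its error. Slc7a1, which takes up arginine and lysine, had log2 signals of 10.83, 11.06 and 10.93 in narrow 1 to 3, against 10.80, 10.96 and 10.88 in wide 1 to 3. Its difference of 0.06 ± 0.07 (SE) was positive in each same-numbered pair, while the cavities overlapped and the arrays numbered 1 were the lowest of either cavity. Slc7a3, a related carrier, had 11.70, 11.54 and 11.72 in narrow and 11.67, 11.51 and 11.60 in wide samples. Here the arrays numbered 2 were the lowest of their cavity, and the difference was 0.06 ± 0.06.

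Heterodimeric transporters pair a light chain, which carries the substrate, with the heavy chain Slc3a2, which takes it to the membrane. Of 6 such genes 2 had positive and 4 negative differences, with a median of -0.0051. Slc7a5, the light chain of the main exchanger for leucine and other large neutral amino acids, had 12.60, 12.66 and 12.63 in narrow samples, against 12.58, 12.55 and 12.59 in wide samples. The groups were separate, with a difference of 0.06 ± 0.04. Slc7a11, the cystine and glutamate exchanger, had 6.76, 6.55 and 6.82 in narrow samples, against 6.64, 6.59 and 6.58 in wide samples. Narrow 2 was the lowest of all 6 and the other narrow samples were the highest, which left a difference of 0.11 ± 0.07. The signal of Slc7a11 lay at the 26.6th percentile of genes, and without a measure of background a dim gene could not be told from an absent one. The remaining differences were -0.02 ± 0.05 for Slc7a6, -0.02 ± 0.05 for Slc7a8, -0.0059 ± 0.04 for the heavy chain Slc3a2 and -0.0043 ± 0.05 for Slc7a7.

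Of 6 transporters of neutral amino acids, 5 had positive differences (median 0.054). Slc6a9, which takes up glycine with sodium and chloride, had the largest difference of the 37 genes, with 8.56, 8.66 and 8.70 in narrow samples and 8.40, 8.61 and 8.50 in wide samples. Narrow 1 lay below wide 2, so the cavities overlapped, yet narrow exceeded wide in each same-numbered pair, by 0.16, 0.05 and 0.20. The difference was 0.14 ± 0.06, or 1.10-fold, and ± 0.04 with the block (limma unadjusted p = 0.0186, adjusted p = 0.674). Slc43a1, a facilitative carrier of large neutral amino acids, had 7.84, 7.81 and 7.93 in narrow and 7.73, 7.79 and 7.81 in wide samples. Its groups were separate by 0.0062, with a difference of 0.09 ± 0.05 and a signal at the 47.6th percentile of genes. The serine and alanine carrier Slc1a4 had a difference of 0.06 ± 0.05, the glutamine carrier Slc1a5 0.04 ± 0.04, and the sodium-coupled carriers Slc38a1 and Slc38a2 0.05 ± 0.05 and -0.04 ± 0.04.

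Serine is made from a glycolytic intermediate by Phgdh, Psat1 and Psph in turn. Shmt1 and Shmt2 pass its carbon to folate, on which Mthfd2 then acts. Positive differences were found for 5 of these 6 enzymes (median 0.049), and those 5 were higher in narrow in all 3 same-numbered pairs. Mthfd2, a mitochondrial folate enzyme, had 11.55, 11.65 and 11.69 in narrow samples, against 11.45, 11.56 and 11.57 in wide samples. Narrow 1 lay among the wide samples, and the pairs differed by 0.10, 0.10 and 0.12. The difference was 0.11 ± 0.05 without and ± 0.03 with the block (limma unadjusted p = 0.0206, adjusted p = 0.674). Psph, the phosphatase of the last step of serine synthesis, had 9.98, 10.03 and 10.07 in narrow samples, against 9.87, 9.92 and 9.99 in wide samples. Wide 3 exceeded narrow 1, and the difference was 0.10 ± 0.05, or ± 0.03 with the block (limma unadjusted p = 0.0253, adjusted p = 0.674). The enzymes of the first and second step had separate groups and smaller differences, Phgdh 0.05 ± 0.04 and Psat1 0.05 ± 0.04. Psat1 averaged 12.16 ± 0.0031 in narrow and 12.12 ± 0.012 in wide samples (SD, n = 3 each). Shmt1, the cytosolic serine hydroxymethyltransferase, had 0.05 ± 0.04 and its mitochondrial counterpart Shmt2 -0.02 ± 0.06.

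Enzymes of asparagine, proline and transamination lay close to 0, with a median of 0.0087 over 4 genes. Asns, the asparagine synthetase and a textbook target of Atf4, had 12.76, 12.66 and 12.58 in narrow samples, against 12.76, 12.66 and 12.61 in wide samples. Its difference was -0.0081 ± 0.06, and the arrays of 1 number lay closer together than those of 1 cavity. Gpt2, a mitochondrial alanine transaminase, had 8.959, 8.910 and 9.106 in narrow samples and 8.855, 9.001 and 9.021 in wide samples. The difference was 0.03 ± 0.07, with narrow below wide in pair 2. Aldh18a1, the first enzyme of proline synthesis, had 11.742, 11.781 and 11.744 in narrow samples, against 11.723, 11.742 and 11.726 in wide samples. Its groups met without a visible gap, with a difference of 0.03 ± 0.04. Got1, the cytosolic aspartate transaminase, had -0.01 ± 0.04.

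Cysteine is made from homocysteine by Cbs and Cth. Cth had 9.47, 9.42 and 9.50 in narrow samples, against 9.35, 9.41 and 9.34 in wide samples. All narrow samples were above all wide samples, and the difference was 0.10 ± 0.04 (limma unadjusted p = 0.0506, and 0.0595 with the block). Cbs had 8.97, 8.98 and 9.12 in narrow samples, against 8.92, 8.86 and 9.11 in wide samples. Its arrays numbered 3 were the highest in both cavities, and the difference was 0.06 ± 0.07.

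Of 11 cytosolic tRNA synthetases, 9 had positive differences and 2 negative ones (median 0.029). Lars, which charges leucine, had 11.54, 11.40 and 11.47 in narrow samples, against 11.43, 11.31 and 11.36 in wide samples. Narrow 2 lay below wide 1, while the pairs differed by 0.10, 0.09 and 0.11, and the difference was 0.10 ± 0.05, or ± 0.03 with the block (limma unadjusted p = 0.0253, adjusted p = 0.674). Gars, which charges glycine, had 12.19, 12.23 and 12.22 in narrow samples, against 12.15, 12.13 and 12.18 in wide samples. Its groups were separate, with a difference of 0.06 ± 0.04. Cars (cysteine) had a difference of 0.06 ± 0.05, Eprs (glutamate and proline) 0.04 ± 0.04, Mars1 (methionine) 0.03 ± 0.04, Tars (threonine) 0.03 ± 0.04, Iars (isoleucine) 0.02 ± 0.04, Wars (tryptophan) 0.02 ± 0.04 and Yars (tyrosine) 0.0087 ± 0.06. Nars (asparagine) had -0.03 ± 0.04 and Sars (serine) -0.04 ± 0.06.

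**Figure D3:**
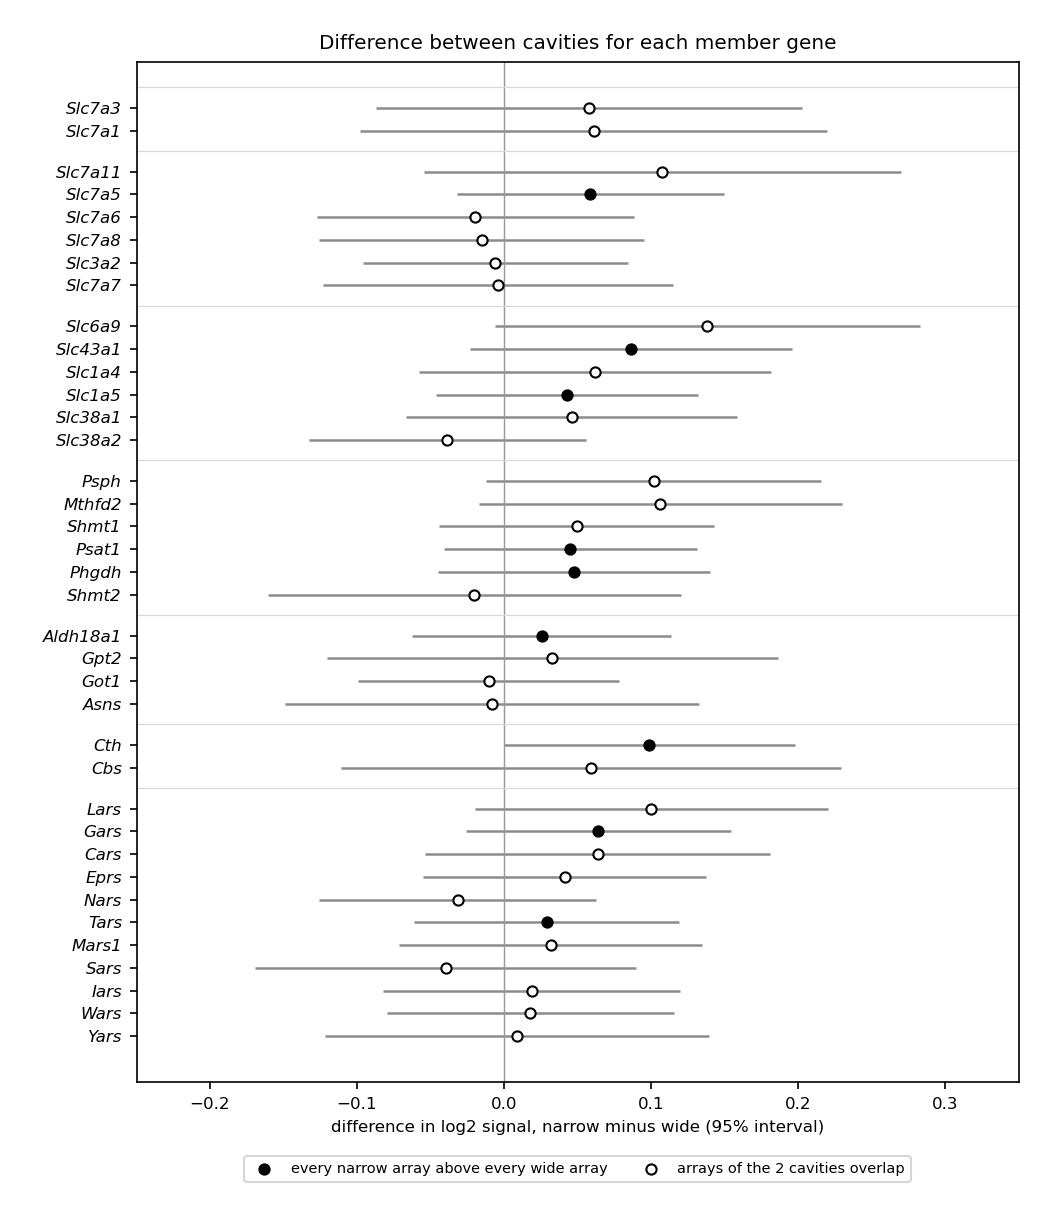
Difference in log2 signal between narrow and wide cavities (x axis, narrow minus wide) for each gene by role, with bars for the 95% interval of the limma fit (3 arrays a group) and filled points for the 9 genes whose groups were separate. All 37 intervals include 0, and 27 of the points lie to its right.

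The 9 genes with the Atf and C/EBP core in the promoter window had a median difference of 0.019, with 6 positive and 3 negative. The 19 genes with a window and no core had a median of 0.041, with 13 positive and 6 negative. Among the genes with the core, 2 had separate groups, Gars and Tars, and among those without it 4. This split was made with the differences known and was not tested.

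Other genes of the same pathways, from 4 lists that share no gene with the set, had median differences between -0.0032 and 0.016. Of 10 further cytosolic synthetases and scaffold proteins 5 were positive (median 0.0025), with Hars at -0.05 ± 0.04, Aimp2 at 0.05 ± 0.04 and Aimp1 at 0.05 ± 0.04. Of 16 mitochondrial synthetases 10 were positive (median 0.016), with Nars2 at -0.08 ± 0.05, Rars2 at 0.09 ± 0.05 and Lars2 at 0.07 ± 0.05. Of 18 further amino acid and folate enzymes 9 were positive (median -0.00044), with Gpt at 0.05 ± 0.05, Aldh1l2 at 0.03 ± 0.04 and Mthfd2l at 0.09 ± 0.12. Of 22 further amino acid transporters 10 were positive (median -0.0032), among them Slc7a9 at 0.15 ± 0.08 and Slc38a3 at 0.15 ± 0.08. No gene of these lists passed over all genes, and none had every narrow array above every wide array (background 4.17%). Narrow exceeded wide in all 3 same-numbered pairs for 2 of the 10, 4 of the 16, 2 of the 18 and 3 of the 22 (background 14.8%). Narrow was below wide in all 3 for 2, 3, 2 and 1 (background 13.9%). With the block, Rars2, Wars2, Slc7a9 and Slc38a3 had an unadjusted limma p under 0.05, higher in narrow (background 3.54%). For Slc7a9 and Slc38a3 this limma p was 0.00783 and 0.0141.

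Slc6a6 is the sodium-driven taurine transporter. Without the block it was the 1 gene of these 4 lists at an unadjusted p under 0.05 (background 1.72% in its direction). The lists hold 10, 16, 18 and 22 genes, so 1 such gene is near the background share. With the block it was also under 0.05. Slc6a6 had 11.26, 11.27 and 11.27 in narrow samples, against 11.40, 11.41 and 11.40 in wide samples. All narrow samples were below all wide samples by more than the spread in either cavity, with a difference of -0.14 ± 0.04 (limma adjusted p = 1.00). Of 20 genes that sense amino acids or act in the stress response, 14 were positive (median 0.047). Every narrow array lay above every wide array for 6 of the 20 (background 4.17%). Narrow exceeded wide in all 3 same-numbered pairs for 10 (background 14.8%) and was below it in all 3 for 1 (background 13.9%). With the block, 6 had an unadjusted limma p under 0.05, all higher in narrow (background 3.54%). The order of arrays seen in the set was thus also present in this list. Trib3, Ddit4 and Chac1 had differences of 0.25 ± 0.06, 0.28 ± 0.07 and 0.26 ± 0.08 and were at an unadjusted p under 0.05 (background 1.68% in that direction), with a limma adjusted p of 1.00 for each, and Atf4 itself had 0.04 ± 0.05.

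Genes of the set were also compared between replicate numbers, whichever the cavity. Deviations from the group means correlated over the 37 genes at 0.872 between narrow 1 and wide 1, at 0.359 between the arrays numbered 2 and at 0.573 between those numbered 3. These are correlations across genes read from the same arrays, and deviations within a group cancel out. Both arrays numbered 1 lay above the other 4 for 8 of 37 genes, or 21.6% (background 12.2%), and below them for 2, or 5.41% (background 19.9%). The 8 were Slc7a7, Slc38a1, Slc38a2, Shmt2, Asns, Cars, Sars and Yars, and the 2 were Slc7a1 and Mthfd2. For the arrays numbered 2 the counts were 2 above and 2 below (background 7.47% and 6.23%), and for those numbered 3 they were 2 above and 3 below (background 11.8% and 6.31%). These backgrounds are over all genes and were not taken among genes above the median signal, where 35 of the 37 lay. The arrays numbered 1 averaged above the others in 20 of 37 genes. Over all 19938 genes this held for 7702, and among the 9969 above the median signal for 5164.

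Shmt2 had 12.04 in narrow 1 and 12.01 in wide 1, against 11.86 and 11.89 in the arrays numbered 2 and 11.86 and 11.93 in those numbered 3. Yars had 11.80 in narrow 1 and 11.80 in wide 1, against 11.68 and 11.66 in the arrays numbered 2 and 11.68 and 11.66 in those numbered 3. For both genes the arrays numbered 1 were high whichever the cavity. The limma F-test of replicate number beside cavity called 0 of 37 after adjustment over all genes (background 0.00502%, which is 1 gene). At an unadjusted p under 0.05 it gave 8 of 37, or 21.6%, near the background of 18.0%. With an intensity trend in the variance prior it called 7 of 37, or 18.9% (background 5.53%), namely Asns, Slc7a1, Shmt2, Slc7a3, Yars, Sars and Mthfd2, with adjusted p from 0.0145 for Asns to 0.0489 for Mthfd2. Among genes above the median signal alone it called 2 of 35, or 5.71% (background 6.98%), Slc7a1 and Cbs. The labels give no meaning for the number. Each number occurs once in each cavity, so the block left the differences between cavities as they were and changed their standard errors.

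**Figure D4:**
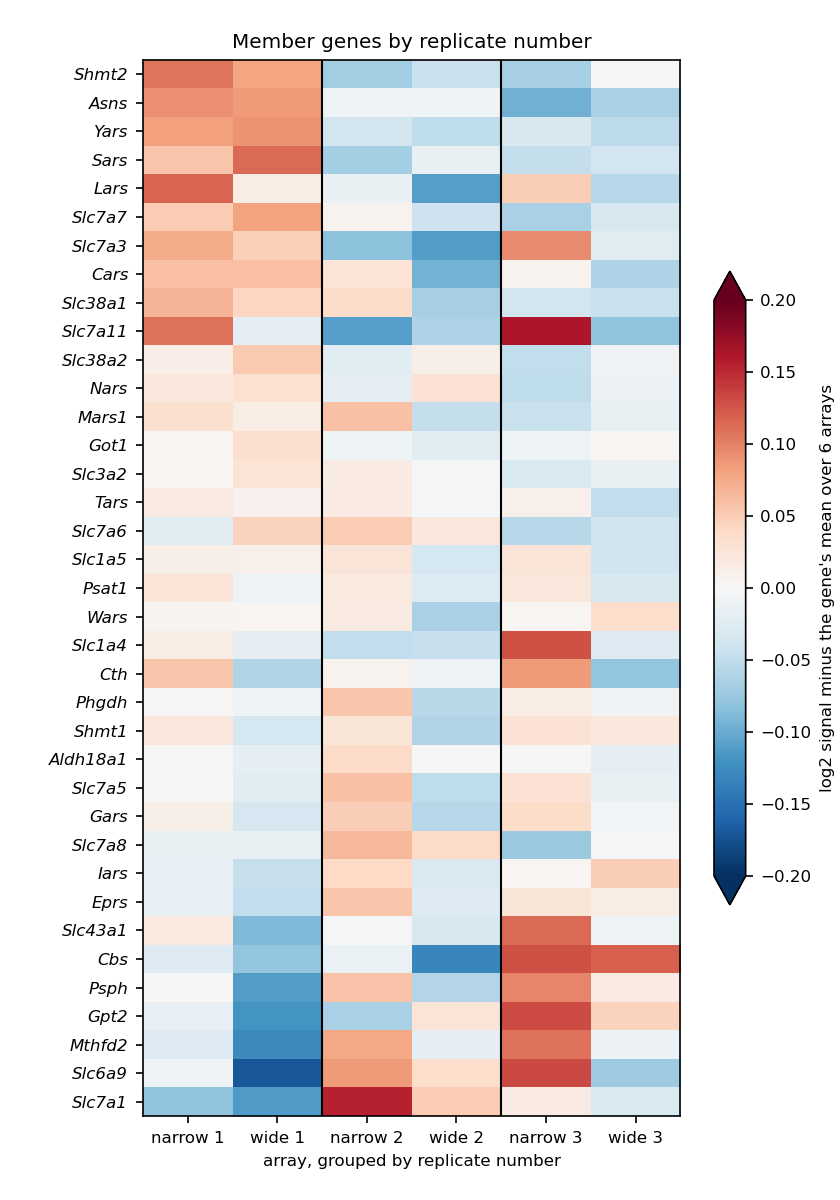
Log2 signal minus the gene's mean over the 6 arrays (colour) for the 37 genes in rows and the 6 arrays in columns, grouped by replicate number, with genes ordered by the mean of the arrays numbered 1 relative to the others. Shmt2, Asns, Yars and Sars are high in both arrays numbered 1, and Slc7a1 is low in both.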

How the data were processed

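The deposited table held log2 signals of 28853 array features in 6 samples. The log2 scale was read from the values, and the authors' background correction and normalization were not given in the sources used here. Features were named through the platform annotation: 21789 named 1 gene, 1621 several and 5443 none. Where a gene had several features (2 of the 37), the one with the highest mean was used. Differences, narrow minus wide, were fitted with limma 3.58.1 in R 4.3.3 (lmFit and eBayes, two-sided, no covariate) over all 19938 genes. Benjamini-Hochberg adjustment was over all of these, with a threshold of 0.05. A blocked fit (replicate number as a term) and an F-test of that number were added. Deviations from group means correlated over all genes at 0.516, 0.176 and 0.272 for samples numbered 1, 2 and 3, each above 0.1, which is the sole basis for pairing them. Narrow 2 correlated with wide 3 at 0.178, as highly as with wide 2. A permutation of 3 against 3 samples cannot give a p below 0.1. The design text calls the samples biological replicates, each a pool of embryos. Background percentages are shares of all genes tested. The fits were tested on simulated data with noise drawn independently for each array and planted differences larger than any of the set. That simulation does not cover differences as small as these or the deviations shared by same-numbered arrays. The genes and lists were chosen with earlier results of these data known. All measured genes were named, with values per array for those at an unadjusted p under 0.05 in either fit and the 2 with the smallest p of each role. From the other lists came the 3 genes with the smallest p. Atf4 and the values of Asns, Psat1, Shmt2 and Yars were added after they were seen. The number of arrays limits the precision.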

Additional observations from a re-analysis of the deposited data

How the results depend on the processing

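In no setting was a gene of the set called between cavities. The fit on arrays numbered 2 and 3 and the counts of positive and separate genes under other settings were chosen after seeing the data. Genes at an unadjusted p under 0.05, 0 in the unblocked fit, numbered 4 with the replicate block, 3 with an intensity trend (Mthfd2, Lars and Gars), 1 among genes above the 50th percentile of signal (background 3.85%), 1 with every feature tested (background 3.25%) and between 0 and 3 with single arrays left out (background 2.49% to 4.97%). The block changed no other call. The median difference of 0.043 ran from 0.032, without narrow 2 or wide 2, to 0.048 without wide 3. Genes with a positive difference, 27, numbered between 26 and 32 with single arrays left out (background 47.5% to 56.7%) and 29 in the arrays numbered 2 and 3 (background 55.0%). The 9 genes with separate groups became 5 after quantile normalization and 18 in the arrays numbered 2 and 3 only, where 19.2% of all genes were separate. Genes called for replicate number, 0 before, became 7 with an intensity trend and 2 among genes above the 50th percentile of signal (background 6.98%). The 8 genes at an unadjusted p under 0.05 for number became 1 without narrow 1 (background 7.91%), 2 without wide 1 (10.4%), 3 without narrow 3 (13.9%) or wide 3 (15%), 4 without narrow 2 (18.4%) and 5 without wide 2 (19.7%), with fewer arrays in each. In each of these fits the share in the set was below the background.

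Of 479 differences under alternatives, 453 kept their sign and 26, none called, did not. With single arrays left out, the changing genes ranged from -0.056 to 0.038 (Asns), -0.023 to 0.0028 (Got1), -0.024 to 0.074 (Gpt2), -0.077 to 0.0069 (Sars), -0.078 to 0.015 (Shmt2), -0.016 to 0.0075 (Slc3a2), -0.00096 to 0.12 (Slc7a1), -0.050 to 0.0041 (Slc7a6), -0.031 to 0.035 (Slc7a7), -0.052 to 0.018 (Slc7a8), -0.010 to 0.040 (Wars) and -0.030 to 0.056 (Yars). In arrays numbered 2 and 3 the values were 0.0053 for Slc7a6, 0.0031 for Slc3a2, 0.0083 for Slc7a7 and -0.0028 for Gpt2. The second feature of Slc38a1 gave -0.028. Leaving out 1 array moved 29 of 37 differences by over 1.5 times at least once. The cause was not tested.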

Other observations

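The feature shared by Aars, the alanyl-tRNA synthetase, and Exosc6 had log2 signals of 11.45, 11.50 and 11.46 in narrow samples, against 11.39, 11.43 and 11.47 in wide samples, a difference of 0.04 ± 0.04 (SE). A feature shared by Phgdh and Gm6756 had 12.00, 12.05 and 12.03 in narrow samples, against 11.99, 11.93 and 12.04 in wide samples, a difference of 0.04 ± 0.04, where the feature of Phgdh alone gave 0.05 ± 0.04. Iars had a second feature, with a difference of 0.03 ± 0.04 beside 0.02 ± 0.04 for the one used.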
